A study of Mus musculus with 12 samples.

Results

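The genes described here are 36 cell-matrix adhesion genes of the mouse, 26 integrin subunits and 10 laminin chains. They are the named family members whose symbols GENCODE M21 pairs with an identifier in the count tables, out of 52636 identifiers in all, and the rule rests on family names and not on expression values, although the families were picked with earlier results of these data known. They were measured by RNA sequencing of lymphatic endothelial cells (LECs) sorted from lungs of mice exposed to cigarette smoke (CS) or kept in room air (RA). The 12 libraries fall into 4 groups: acute CS (2 libraries, F and M), acute RA (2, F and M), chronic CS (5, F and M1 to M4) and chronic RA (3, F, M1 and M2), where F and M give the sex. All mice carried the Prox1-EGFP reporter, in which regulatory sequence of the lymphatic transcription factor gene Prox1 drives green fluorescent protein. Cells were sorted as CD31 and GFP positive, and as negative for EpCAM and for a cocktail of blood lineage markers. CS was 3R4F cigarette smoke given to the whole body on 5 days a week from 6 weeks of age, for 8 weeks in the acute and for 24 weeks or more in the chronic groups, and RA mice were age-matched and housed alike. The labels read 8wk for the acute groups, which is also the number of weeks of their exposure, and Aged for the chronic groups. The age at harvest is not stated. Each acute library pooled cells of 2 to 5 mice, and each chronic library held cells that were not pooled. The groups address whether short or long smoke exposure changes the LEC transcriptome, here for the receptors and ligands by which cells hold on to matrix and to each other.

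Integrins are membrane receptors made of an alpha and a beta subunit. They bind matrix proteins or counter-receptors on other cells and link them to the actin cytoskeleton. Laminins are trimers of an alpha, a beta and a gamma chain that build basement membranes. Initial lymphatic vessels are known for a thin, discontinuous basement membrane, lymphatic valves need integrin alpha9 beta1, and integrins that pair with beta2 or beta7 are known as receptors of leukocytes.

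Total counts per library were between 18821438 and 56998590, so that 3 counts, the limit that a count of 0 allows, correspond to between 0.0526 and 0.159 CPM. Expression is given as CPM, the usual abbreviation of read counts scaled to a common library size, here with edgeR's TMM factors, and levels of different genes are compared as FPKM, the same value per kilobase of the union of a gene's exons. Of all genes, 21440 passed the filter on low counts, and all 36 integrin and laminin genes were among them, some only through the group in which they were high. The label of lymphatic endothelium was checked with Prox1, Flt4, Lyve1, Pdpn, Mmrn1 and Reln, whose summed level was 13510 and 15240 CPM in acute RA, 5904 and 9073 CPM in acute CS, 18530 to 21260 CPM in chronic RA and 13570 to 19950 CPM in chronic CS. Reads of cells that the sort should remove were present in every library, and their levels stand beside the results they move with. In these bulk libraries, fewer cells of a type and less RNA per cell cannot be told apart.

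In room air, 9 of the 36 genes had a mean of at least 10 FPKM over the 5 RA libraries and 18 had a mean under 1 FPKM. Itgb1, the beta subunit shared by most matrix-binding integrins, had the highest level, 251.5 ± 8.30 FPKM (SD, n = 5), with a range of 238.9 to 260.8 that lay above every other integrin and laminin gene. Itga9, which pairs with Itgb1 and binds fibronectin EIIIA, tenascin and EMILIN1, followed at 119 ± 19.1 FPKM, and Lama4, the alpha chain of endothelial laminins, at 87.8 ± 11.3 FPKM. The ranges of Itga9 (92.95 to 144.4 FPKM) and Lama4 (75.78 to 101.7 FPKM) overlapped, so their order is not resolved by these libraries.

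Below them stood the chains that complete a laminin trimer with Lama4 and the fibronectin receptor. Lamb2 was at 60.9 ± 4.18 FPKM, Itga5, the fibronectin-binding partner of Itgb1, at 44.96 ± 2.93 FPKM, and Lamc1 at 33.8 ± 7.03 FPKM. Lama4 did not overlap Lamb2, and Lamb2 did not overlap Itga5, while Itga5 and Lamc1 overlapped. Itga6, an alpha subunit of laminin receptors, came next at 13.2 ± 2.38 FPKM, below every value of Lamc1. Lamb1 (12.96 ± 3.78 FPKM) and Itgb3, the beta subunit of the vitronectin receptor (11.5 ± 2.31 FPKM), overlapped Itga6 and each other. From Itga6 down to the last gene, each range overlapped that of the next gene in the order.

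**Figure D1:**
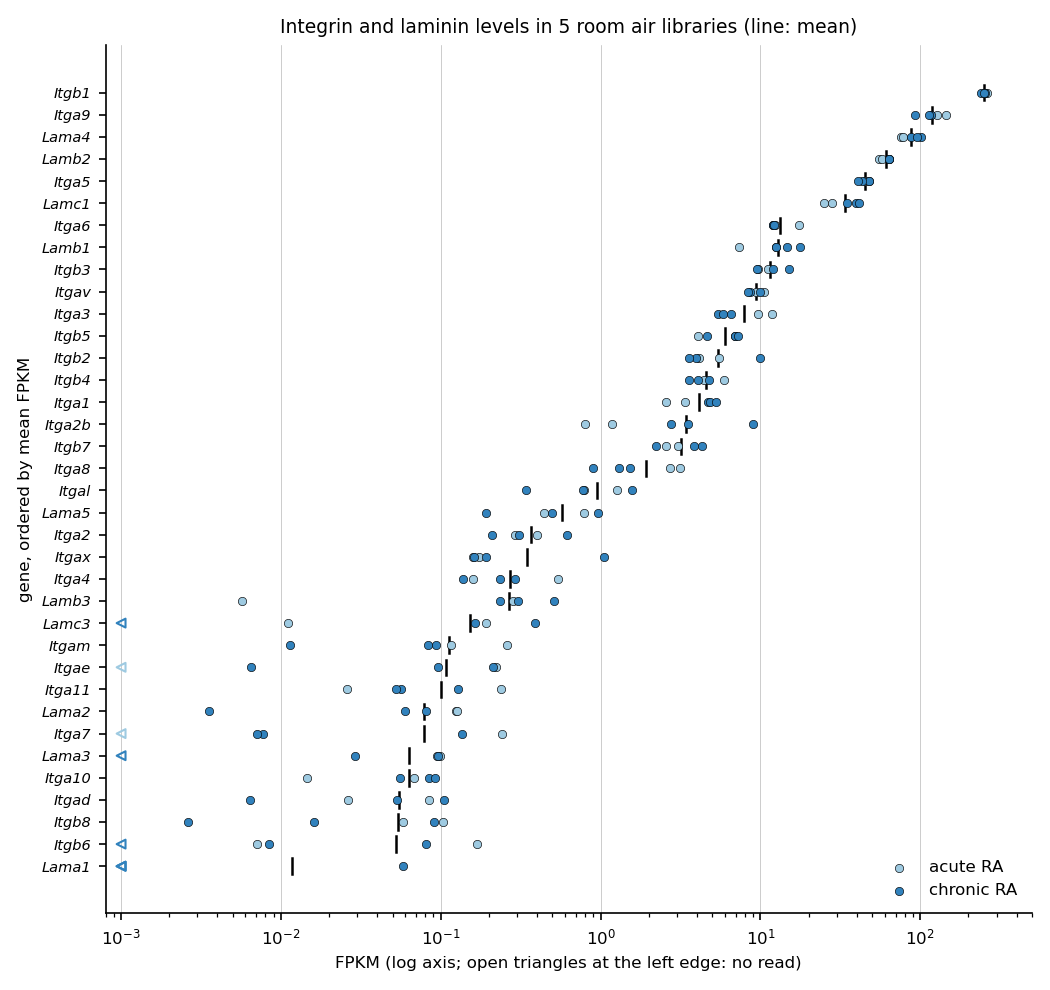
Level of each integrin and laminin gene in the 5 room air libraries, as FPKM on a log axis, with 1 point a library and a line at the mean, in order of the mean. Itgb1 stands above all others at 251.5 FPKM, 9 genes have a mean of at least 10 FPKM, and Lama1, at the bottom, had no read in 4 of the 5 libraries.

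The laminin chains of the RA libraries were those of the trimer of Lama4, Lamb2 and Lamc1. Lama4 made up 98.7% to 99.7% of the FPKM of the 5 laminin alpha chains, Lamb2 78.1% to 87.8% of that of the 3 beta chains and Lamc1 98.9% to 100% of that of the 2 gamma chains measured here. Lamb1 took most of the remaining beta chain level, between 11.7% and 21.6%. Lama1, the alpha chain of early embryonic basement membranes, had no read in 4 of the RA libraries and 0.564 CPM in chronic RA F. The other alpha chains were at 0.00353 to 0.126 FPKM for Lama2, 0 to 0.0986 FPKM for Lama3 and 0.192 to 0.963 FPKM for Lama5.

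After acute CS, genes of leukocyte integrins were higher and the 2 most abundant genes after Itgb1 were lower. Itgb2, Itgb7, Itgal, Itgax and Itgad, all receptors of leukocytes, rose by 3.98 to 6.43 on the log2 scale, and the collagen receptor subunits Itga1 and Itga2 and the laminin chain Lama5 rose by 2.01 to 3.86. Itga9 and Lama4 fell by 1.58 and 0.96 on the log2 scale. With edgeR's quasi-likelihood test, adjusted over all genes after Benjamini and Hochberg, and a limit of 0.05, 8 of the 36 genes (22.2%) were called higher, where 2.75% of all genes tested were, and 2 (5.56%) were called lower, where 0.723% were. The median log2 fold change was 1.91 over the 36 genes and 0.04 over all genes tested. In 22 of the 36 genes both acute CS libraries lay above both acute RA libraries (27.4% of all genes tested) and in 7 they lay below (22.5%). DESeq2 called 16 of the 36 genes, where it called 10.9% of all genes it gave a value.

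The acute fold changes rest on 2 libraries a group, while their p-values use a spread estimated over all 12 libraries, 8 of them chronic. They measure only the spread between these libraries, which may be technical in part. Leaving out a library of the acute groups left 10 calls without acute CS M, 1 without acute CS F, 1 without acute RA F and 0 without acute RA M. Without acute CS M the call of Itgad was lost and that of Itga4 was gained, and the single call without either F library was Itgb7. A fit of the 4 acute libraries alone called Itgb7 and Itgax. The fold changes of 6 of the 10 genes moved by over 1.5 times when a library was left out. Without acute CS F the log2 fold change was 1.197 in place of 2.01 for Itga1, 2.97 in place of 3.86 for Itga2, 3.31 in place of 4.05 for Itgal, 3.39 in place of 3.98 for Itgb2 and 2.28 in place of 3.05 for Lama5. That of Itgad, 5.11 with all libraries, was 4.51 without acute RA F and 6.12 without acute RA M.

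**Figure D2:**
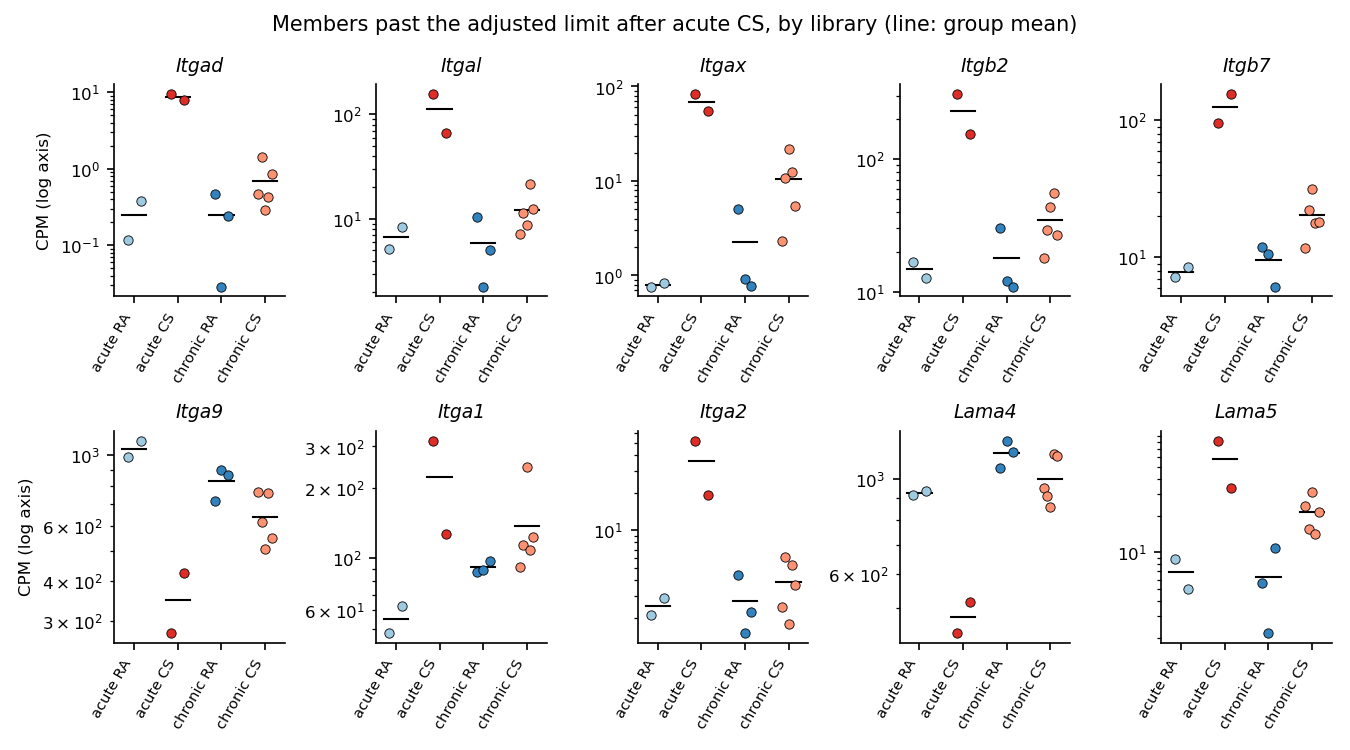
CPM on a log axis in each library, by group, for the 10 integrin and laminin genes past the adjusted limit after acute CS, with a line at the group mean. In 8 panels both acute CS points lie above both acute RA points, in the panels of Itga9 and Lama4 they lie below, and the axes differ between panels.

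Itgb2, the beta subunit that Itgal, Itgam, Itgax and Itgad need to reach the cell surface, was counted at 16.9 CPM (F) and 12.6 CPM (M) in room air and at 309.6 CPM (F) and 154 CPM (M) after acute smoke. Both CS libraries stood above both RA libraries, with a log2 fold change of 3.98 (SE 0.65, adjusted p = 0.00886). Itgal, the alpha subunit of LFA-1, which binds ICAM-1, was at 5.15 and 8.34 CPM in acute RA and at 156 (F) and 66.8 (M) CPM in acute CS, with a fitted log2 change of 4.05 (SE 0.74, adjusted p = 0.0143). Itgax (CD11c), carried by dendritic cells and alveolar macrophages, was under 1 CPM in acute RA, at 0.760 and 0.832, and at 83.0 (F) and 55.0 (M) CPM in acute CS. Its log2 fold change of 6.43 (SE 1.197, adjusted p = 0.0154) was the highest among the 10 calls.

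Itgad (CD11d), found on subsets of macrophages, was at 0.118 and 0.378 CPM in acute RA, from 7 and 20 counts, and at 9.40 and 7.96 CPM in acute CS, with a log2 fold change of 5.11 (SE 1.19, adjusted p = 0.0407). Annotated genes, 4 in number, overlap 19.7% of its exon bases, so part of its count is uncertain. Itgb7, the beta subunit of gut and mucosal homing receptors that pairs with Itga4 or Itgae, was at 7.15 and 8.46 CPM in acute RA and at 95.2 (F) and 156 (M) CPM in acute CS. Its log2 fold change of 4.01 had the smallest SE of the 5 leukocyte calls, 0.48 (adjusted p = 0.00400), and here the male library was the higher.

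Itgae (CD103) and Itgam (CD11b) did not pass the limit in edgeR, and the acute CS libraries differed widely from each other in both. Itgae, which marks T cells and dendritic cells that hold on to epithelium, was at 1.01 and 0 CPM in acute RA and at 8.70 (F) and 29.7 (M) CPM in acute CS (log2 fold change 5.23, SE 2.35, adjusted p = 0.310). Itgam, the alpha subunit of Mac-1 on myeloid cells, was at 1.30 and 0.586 CPM in acute RA and at 19.9 (F) and 1.41 (M) CPM in acute CS (log2 fold change 3.49, SE 1.27, adjusted p = 0.197 in edgeR and 0.0299 in DESeq2). Without acute CS F the log2 fold change of Itgam was 0.58, so most of its rise rests on that library. A gene annotated on the same strand, Gm49368, shares 68.7% of the exon bases of Itgam, and reads there can be left uncounted, so its level is uncertain. The direction was higher for all 7 leukocyte integrins, and their median log2 fold change was 4.05.

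General markers of leukocytes moved in the same libraries. All 6 of Ptprc, Coro1a, Cd53, Laptm5, Rac2 and Cd52 were called higher, and their summed level was 93.4 and 83.7 CPM in acute RA and 1469 (F) and 1143 (M) CPM in acute CS, with none at 0 in any of the 4 libraries. Alveolar macrophage markers stood at 766 and 681 CPM in acute RA, of which 663 and 632 CPM were Mrc1, a gene also known in LECs, and at 1991 and 2113 CPM in acute CS (2 of 6 called higher and Mrc1 lower), with Siglecf at 0 in acute RA F and Marco at 0 in acute RA M. T and NK cell markers were at 24.3 and 20.2 CPM in acute RA and at 95.7 (F) and 221 (M) CPM in acute CS (4 of 6 called higher, none at 0). B cell markers were at 5.53 and 10.9 CPM in acute RA and at 134 (F) and 22.5 (M) CPM in acute CS, with 4 of 4 higher, 0 called by edgeR, 3 at an unadjusted p under 0.05, 3 called by DESeq2 and none at 0. These counts of called markers are edgeR's unless DESeq2 is named. The part of these cells in the result was not tested.

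Set against the pan-leukocyte gene Ptprc of the same library, Itgb2 stood at 0.852 and 0.641 in acute RA and at 1.09 and 1.0 in acute CS. The ratio of Itgal to Ptprc was 0.261 and 0.425 in acute RA and 0.549 and 0.433 in acute CS. For both genes the CS ratios lay above the RA ratios. The gap was wider for Itgax, with ratios of 0.0384 and 0.0424 in acute RA and 0.292 and 0.357 in acute CS. The ratio of Itgb7 to Ptprc was 0.361 (F) and 0.431 (M) in acute RA and 0.335 (F) and 1.01 (M) in acute CS. For Itgb7, acute CS F thus lay below both acute RA libraries. Cd3e, the T cell receptor subunit gene, was higher in acute CS M than in acute CS F, at 47.2 against 13.5 CPM. The ratio of Itgae to Cd3e was 0.496 (F) and 0 (M) in acute RA and 0.645 (F) and 0.629 (M) in acute CS. These ratios are a description, with 2 libraries a group and no test.

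Itga4, which pairs with Itgb1 to bind VCAM-1 or with Itgb7 to bind MAdCAM-1, was at 7.57 and 2.21 CPM in acute RA and at 56.0 (F) and 15.97 (M) CPM in acute CS. With a log2 fold change of 2.88 (SE 0.71) its adjusted p of 0.0519 missed the limit narrowly in edgeR, while DESeq2 gave 0.000607. Its log2 fold change was 1.71 without acute CS F and 4.02 without acute RA F. Cerkl, annotated on the opposite strand, overlaps 8.04% of its exon bases.

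Its closest relative Itga9 went the other way. Itga9 was at 985 and 1111 CPM in acute RA and at 275 (F) and 425 (M) CPM in acute CS, so that the highest CS library had less than the lowest RA library. The log2 fold change was -1.58 (SE 0.25, adjusted p = 0.00824). In chronic RA it was at 715, 897 and 867 CPM, in F, M1 and M2, and at 764, 616, 508, 762 and 549.9 CPM in chronic CS F and M1 to M4, so that the chronic groups overlapped (log2 fold change -0.37, SE 0.17, adjusted p = 0.473).

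Lymphatic markers were lower in the same libraries. In acute CS, 5 of the 6 were lower, 2 of them called, and Lyve1 was higher, and Prox1 was at 2239 and 2476 CPM in acute RA and at 1042 (F) and 1262 (M) CPM in acute CS. Per unit of Prox1, Itga9 stood at 0.440 and 0.449 in acute RA and at 0.264 and 0.337 in acute CS, so that it was lower also against this marker. The ratio of Lama4 to Prox1 was 0.408 and 0.378 in acute RA and 0.419 and 0.408 in acute CS, and showed no such gap. The ratio of Itgb1 to Prox1 was 0.466 and 0.430 in acute RA and 1.01 and 0.803 in acute CS. The part of the lymphatic markers' lower level in these results was not tested.

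Of the 4 collagen-binding alpha subunits, which all pair with Itgb1, 2 rose after acute CS. Itga1 was at 47.9 and 62.6 CPM in acute RA and at 318 (F) and 126 (M) CPM in acute CS, with a fitted log2 change of 2.01 (SE 0.48, adjusted p = 0.0452). Itga2, also the collagen receptor subunit of platelets, was at 2.08 and 2.86 CPM in acute RA and at 52.4 (F) and 19.4 (M) CPM in acute CS, with a fitted log2 change of 3.86 (SE 0.75, adjusted p = 0.0194). In both genes the female CS library was the higher. Platelet markers summed to 8.53 and 9.76 CPM in acute RA, where Gp6 and Treml1 were at 0 in M, and to 35.6 (F) and 12.6 (M) CPM in acute CS, with 0 of 6 called by edgeR, 1 at an unadjusted p under 0.05, and 1, Pf4, called by DESeq2. Their part in the level of Itga2 was not tested. Itga10 and Itga11 were at 0.0757 to 2.53 CPM in the 4 acute libraries and their groups overlapped. For Itga10, 33.5% of the exon bases are shared with Gm42957 on the same strand. Of the 10 calls, that of Itga1 held in the fewest alternative settings, 6 of 19, with adjusted p from 0.000408 to 0.395.

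Itga1 and Itga2 are neighbours in the genome, 20995 bases apart on the minus strand of chromosome 13 in GRCm38 (Itga2 from 114833081 to 114932100, Itga1 from 114953096 to 115101964). Itgam, Itgax and Itgad are likewise neighbours on the plus strand of chromosome 7, where Itgam (128062640 to 128118491) lies 11.1 kb before Itgax (128129547 to 128150657) and Itgax 3.72 kb before Itgad (128154376 to 128223816). Itgal lies on the same chromosome, 728 kb before Itgam (127296260 to 127335138). Thus 5 of the 8 genes that rose lie in these stretches of chromosomes 7 and 13, and the other 3 lie on chromosomes 10 (Itgb2), 15 (Itgb7) and 2 (Lama5).

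The bases before the start sites of genes called after acute CS are shown as a description. RefSeq start sites on GRCm38.p6 were matched to 23 of the 36 genes, and for 17 of them a site lay within 100 bases of the annotated gene start, among them Itgax, Itgb7, Itga1, Itga2 and Lama5 of the 10 genes called after acute CS. Each line gives the 250 bases before the start site, 5′ to 3′ on the gene's strand, with capitals at each GGAA, the core bound by ETS factors, or its reverse complement TTCC.
Itgax (chr7:128129300-128129549, plus strand): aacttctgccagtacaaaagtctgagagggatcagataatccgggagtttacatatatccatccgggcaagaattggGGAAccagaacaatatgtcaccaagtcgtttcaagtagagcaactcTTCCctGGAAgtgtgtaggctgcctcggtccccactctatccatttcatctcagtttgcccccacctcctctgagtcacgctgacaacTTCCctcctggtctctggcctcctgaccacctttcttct
Itgb7 (chr15:102231936-102232185, minus strand): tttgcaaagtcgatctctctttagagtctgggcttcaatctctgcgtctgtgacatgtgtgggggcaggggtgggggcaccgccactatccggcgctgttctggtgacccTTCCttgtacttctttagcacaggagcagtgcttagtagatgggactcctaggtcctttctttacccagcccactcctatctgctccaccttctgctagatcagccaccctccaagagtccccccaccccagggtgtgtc
Itga1 (chr13:115101965-115102214, minus strand): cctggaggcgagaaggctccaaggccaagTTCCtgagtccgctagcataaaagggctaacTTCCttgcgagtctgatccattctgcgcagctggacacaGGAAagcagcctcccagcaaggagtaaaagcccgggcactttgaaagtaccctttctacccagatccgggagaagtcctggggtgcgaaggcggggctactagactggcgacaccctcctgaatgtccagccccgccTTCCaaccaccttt
Itga2 (chr13:114932101-114932350, minus strand): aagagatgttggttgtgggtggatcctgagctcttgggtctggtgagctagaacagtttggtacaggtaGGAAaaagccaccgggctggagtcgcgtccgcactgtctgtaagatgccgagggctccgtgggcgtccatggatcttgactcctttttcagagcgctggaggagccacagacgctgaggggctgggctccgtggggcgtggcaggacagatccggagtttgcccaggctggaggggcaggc
Lama5 (chr2:180225860-180226109, minus strand): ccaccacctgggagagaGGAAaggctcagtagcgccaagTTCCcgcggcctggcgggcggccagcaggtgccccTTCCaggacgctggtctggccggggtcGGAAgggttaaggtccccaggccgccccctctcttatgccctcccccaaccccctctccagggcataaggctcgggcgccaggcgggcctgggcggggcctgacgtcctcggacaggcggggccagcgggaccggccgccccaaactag

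The motif GGAA, searched on both strands, stood 4 times in the windows of Itgax, Itga1 and Lama5 and 1 time in those of Itgb7 and Itga2. It occurred in 93.4% of all 32851 promoter windows, with a median of 3, so its presence does not set these genes apart. The GC box GGGCGG, also searched on both strands, was found 4 times in the window of Lama5 and not in the other 4, and in 32.7% of all windows. The GC content was 50% for Itgax, 56.0% for Itgb7, 57.6% for Itga1, 60.8% for Itga2 and 72.4% for Lama5, beside a median of 52.4% over all windows. A match of letters is a description and not a binding site.

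The subunits that bind laminin were not called by edgeR after acute CS. Itga6 was at 112 and 158 CPM in acute RA and at 324 (F) and 212 (M) CPM in acute CS, groups that did not overlap (log2 fold change 0.99, SE 0.29, adjusted p = 0.103). Itga3, the other broadly used laminin receptor subunit, was at 55.2 and 67.5 CPM in acute RA and at 222 and 101 CPM in acute CS (log2 fold change 1.40, SE 0.47, adjusted p = 0.158). DESeq2 called both, with adjusted p of 0.0138 for Itga6 and 0.0323 for Itga3. Itgb4, the partner of Itga6 in hemidesmosomes, had overlapping groups at 30.99 to 77.0 CPM, and Itga7, known from muscle, was at 1.96 and 0 CPM in acute RA and at 7.99 and 5.68 CPM in acute CS.

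Among the subunits that bind the RGD motif of matrix proteins and their beta partners, 0 of 9 genes were called by edgeR's quasi-likelihood test after acute CS, 1 had an unadjusted p under 0.05, beside 15.7% of all genes tested, and DESeq2 called 1, a share close to its 10.9% over all genes. Itgb1 itself was the steadiest of the abundant genes, at 1044 and 1064 CPM in acute RA and 1049 and 1013 CPM in acute CS, with a fitted log2 change of -0.03 (SE 0.15, adjusted p = 0.973). Itga5 was at 224 and 234 CPM in acute RA and at 210 and 182 CPM in acute CS (log2 fold change -0.22, SE 0.12, adjusted p = 0.433). Itgb3 was at 66.2 and 56.9 CPM in acute RA and at 38.5 and 53.1 CPM in acute CS (log2 fold change -0.43, SE 0.30, adjusted p = 0.591), and Itgav, its usual partner, at 113 and 100 CPM and at 90.8 and 69.0 CPM.

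The gene with the unadjusted p under 0.05 was Itgb5, a further beta partner of Itgav, at 14.4 and 24.5 CPM in acute RA and at 96.2 (F) and 63.4 (M) CPM in acute CS (log2 fold change 2.04, SE 0.72, adjusted p = 0.178). Itgb6, the epithelial partner of Itgav, reached 10.8 CPM in the female acute CS library, while the other 3 acute libraries had 0.0507 to 1.19 CPM. The epithelial markers were also highest in acute CS F, where they summed to 8472 CPM, beside 219 CPM in the male and 1841 and 1035 CPM in acute RA, and none of the 8 at 0. Their part in the level of Itgb6 was not tested. Itga2b, Itga8 and Itgb8 were at 0.642 to 42.3 CPM in the acute libraries.

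The laminin alpha chains showed a shift in make-up after acute CS, where 1 of the 10 laminin chains was called higher and 1 lower by edgeR. Among the beta chains, Lamb2 made up 87.84% (F) and 82.17% (M) of FPKM in acute RA and 85.27% and 85.35% in acute CS. Among the gamma chains, Lamc1 made up 99.96% and 99.32% and then 93.78% and 95.77%. Lama4 was at 915 and 936 CPM in acute RA and at 437 (F) and 515 (M) CPM in acute CS, with a fitted log2 change of -0.96 (SE 0.16, adjusted p = 0.00978), with no overlap between groups. Lama5, the alpha chain of mature blood vessel and epithelial basement membranes, was at 8.92 and 5.01 CPM in acute RA and at 81.9 (F) and 33.8 (M) CPM in acute CS, with a fitted log2 change of 3.05 (SE 0.70, adjusted p = 0.0369). Of the FPKM of all laminin alpha chains, Lama4 made up 98.7% and 99.2% in acute RA and 80.7% (F) and 90.8% (M) in acute CS, and Lama5 made up 1.02% and 0.563% and then 16.03% and 6.32%. Both acute CS libraries thus held a more mixed set of alpha chains than any RA library.

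**Figure D3:**
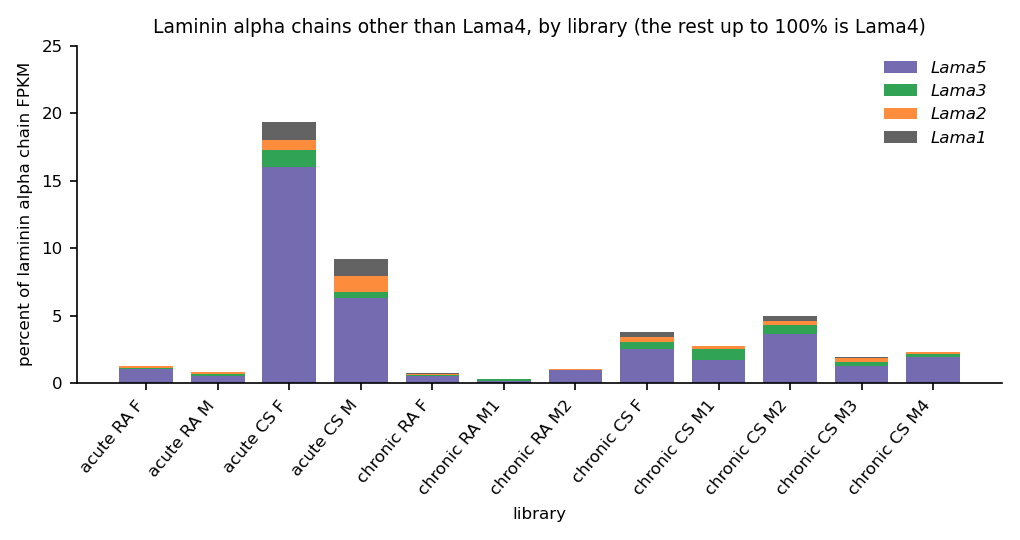
Share of each laminin alpha chain other than Lama4 in the summed FPKM of the 5 alpha chains, in percent, as stacked bars by library. Lama5 reaches 16.03% (F) and 6.32% (M) in acute CS, lies between 1.28% and 3.63% in the 5 chronic CS libraries and stays at or under 1.02% in the 5 RA libraries.

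The chains that pair with Lama4 and Lama5 were not called. Lamb2 was at 335 and 351 CPM in acute RA and at 327 and 322 CPM in acute CS (log2 fold change -0.08, SE 0.18, adjusted p = 0.922). Lamc1 was at 207 and 233 CPM in acute RA and at 164 and 180 CPM in acute CS (log2 fold change -0.36, SE 0.28, adjusted p = 0.650), and Lamb1 overlapped at 72.9 and 124 CPM in acute RA and at 67.7 and 84.9 CPM in acute CS. Lama1 had no read in either acute RA library and 5.59 (F) and 5.53 (M) CPM in acute CS, at least 95.8-fold higher against a floor of 3 counts per library, yet with an adjusted p of 0.190 in edgeR and of 0.00998 in DESeq2. Lama2, Lama3, Lamb3 and Lamc3 were at 0.0378 to 2.06 CPM in acute RA and at 2.13 to 16.3 CPM in acute CS, without overlap and with adjusted p from 0.377 to 0.568.

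Markers of blood endothelium and of mural cells, which are known to make Lama5, moved in the same libraries. The blood endothelial markers summed to 2691 and 3548 CPM in acute RA and to 5439 and 5941 CPM in acute CS (2 of 6 called higher). Of these sums, Plvap alone made up 2127 and 3053 CPM in acute RA and 2719 and 3006 CPM in acute CS. Smooth muscle and pericyte markers summed to 24.1 and 45.2 CPM and then 266 and 249 CPM (4 of 6 called). Fibroblast markers summed to 241 and 216 CPM and then 408 and 684 CPM (3 of 6 called). None of these 18 markers was at 0 in the 4 acute libraries. The epithelial markers, given above, were high in the female acute CS library and not in the male. Their part in the results on laminins, Itga1 and Itga2 was not tested.

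Other genes of the pathway were counted from a fixed list of 38, of which 37 were tested. After acute CS, edgeR called 6 higher and 2 lower, beside 2.75% and 0.723% of all genes tested, and DESeq2 called 14, beside 10.9%. Among 15 integrin ligands, Vcam1, the counter-receptor of integrin alpha4 beta1, was at 18.1 and 11.9 CPM in acute RA and at 149.7 (F) and 315 (M) CPM in acute CS (log2 fold change 3.95, SE 0.67, adjusted p = 0.0106). Icam1, bound by the beta2 integrins, was at 58.3 and 65.1 CPM and at 356 and 253 CPM (log2 fold change 2.30, SE 0.27, adjusted p = 0.00364). Jam2, a junction molecule that also binds alpha4 beta1, was at 13.3 and 9.06 CPM and at 157 and 218 CPM (log2 fold change 4.07, SE 0.45, adjusted p = 0.00322). The genes of LFA-1, Itgal and Itgb2, and of its ligand Icam1 thus rose in the same comparison.

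Vcam1 is also a ligand of integrin alpha9 beta1. Emilin1, another one, did not pass the limit in edgeR, at 590 and 646 CPM in acute RA and at 299 and 387 CPM in acute CS (log2 fold change -0.85, SE 0.25, adjusted p = 0.108 in edgeR and 0.0154 in DESeq2), and Npnt, a ligand of integrin alpha8 beta1, was at 549 and 548 CPM and at 207 and 289 CPM (log2 fold change -1.15, SE 0.30, adjusted p = 0.0684 in edgeR and 0.005 in DESeq2). Of the laminin partners, Bcam, a Lama5 receptor on the cell surface, rose from 78.4 and 79.3 CPM to 563 (F) and 389 (M) CPM (log2 fold change 2.59, SE 0.30, adjusted p = 0.00389). Nid2, which ties laminin to collagen IV, fell by 0.99 on the log2 scale (SE 0.23, adjusted p = 0.0443). In the adhesion complex, Fermt3, the kindlin of blood cells, rose by 3.003 (SE 0.42, adjusted p = 0.00570) and Lims2, a partner of integrin-linked kinase, by 3.78 (SE 0.60, adjusted p = 0.00841), while its paralogue Lims1 fell by 0.64 on the log2 scale (SE 0.14, adjusted p = 0.0271).

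After chronic CS, none of the 36 genes passed the adjusted limit in edgeR's quasi-likelihood test, in which 0% of all genes tested did. The genes nearest to it were the laminin chains Lama2, Lama3 and Lama5, the integrins Itga8, Itgb7 and Itgax on the higher side, and Itga2b and Itga5 on the lower side. These 8 genes (22.2%) had an unadjusted p under 0.05, as did 10.9% of all genes tested, and the same 8 genes had an adjusted p under 0.05 in DESeq2, which called 2.91% of the genes it gave a value. In 3 of the 36 genes all 5 chronic CS libraries lay above all 3 chronic RA libraries (3.92% of all genes tested), and in 2 they lay below (5.49%). The median log2 fold change was 0.65 over the 36 genes and 0.01 over all genes tested.

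**Figure D4:**
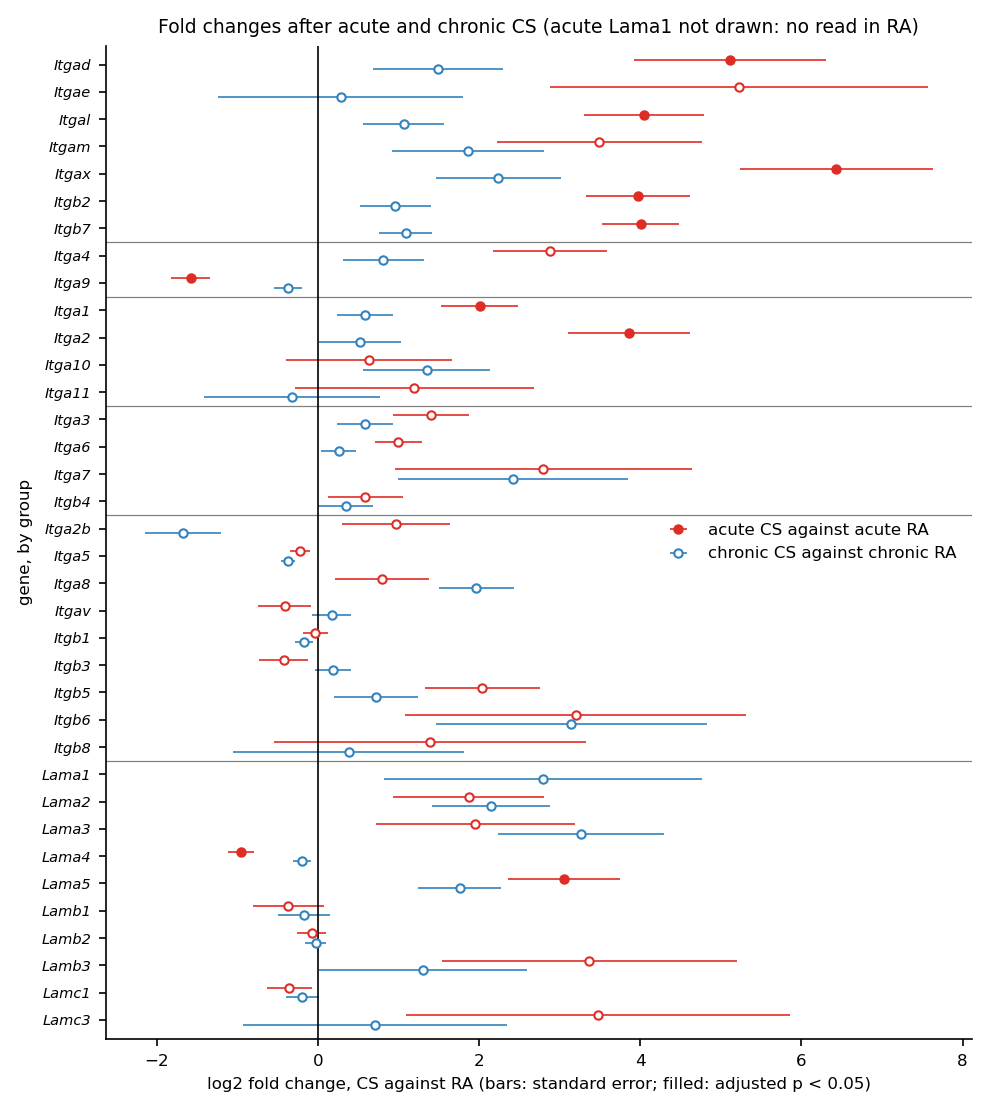
Log2 fold change of each integrin and laminin gene after acute CS and after chronic CS, each against its own RA libraries, with the standard error as a bar and filled points for an adjusted p under 0.05. The 10 filled points are all of the acute comparison, from -1.58 for Itga9 to 6.43 for Itgax, and Lama1 has no acute point because it had no read in acute RA.

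Lama2, Lama3 and Lama5 were the genes without overlap on the higher side. Lama5 was at 5.64, 2.19 and 10.97 CPM in chronic RA F, M1 and M2, and at 24, 15.4, 31.01, 14.1 and 21.5 CPM in chronic CS F and M1 to M4, with a log2 fold change of 1.76 (SE 0.51, adjusted p = 0.314). Lama3, the epithelial alpha chain, was at 0.313, 1.04 and 0 CPM in chronic RA and at 1.97 to 6.78 CPM in chronic CS (log2 fold change 3.27, SE 1.03, adjusted p = 0.333). Lama2, the alpha chain of muscle and mesenchyme, was at 0.971, 0.0576 and 1.31 CPM in chronic RA and at 2.35 to 4.89 CPM in chronic CS (log2 fold change 2.15, SE 0.73, adjusted p = 0.364). Levels of Lama2 and Lama3 were thus low in both groups. Without chronic RA M2 the log2 fold change was 2.45 for Lama5 and 2.76 for Lama2. Without chronic RA M1 it was 4.79 for Lama3. Lama4 was at 1059, 1228 and 1158 CPM in chronic RA and at 953, 915, 859.7, 1140 and 1132 CPM in chronic CS (log2 fold change -0.20, SE 0.11, adjusted p = 0.543), and made up 95.1% to 98.0% of the alpha chain FPKM in chronic CS against 98.9% to 99.7% in chronic RA.

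Epithelial, fibroblast and mural cell markers were also higher in these libraries. The epithelial markers summed to 242 to 497 CPM in chronic RA and to 1152 to 4935 CPM in chronic CS, with Epcam at 0 in chronic CS F. Fibroblast markers summed to 142 to 176 CPM and to 195 to 389 CPM, and smooth muscle and pericyte markers to 20.6 to 38.3 CPM and to 77.4 to 159.7 CPM, with none at 0. Of these markers, 5 of 8, 4 of 6 and 4 of 6 had an unadjusted p under 0.05 on the higher side in edgeR, which called 0, while DESeq2 called 2, 3 and 3 of them. Blood endothelial markers summed to 3226 to 3310 CPM in chronic RA and to 2465 to 3548 CPM in chronic CS, with none at 0 and 0 called by edgeR. Of these sums, Plvap alone made up 2689 to 2785 CPM in chronic RA and 1704 to 2753 CPM in chronic CS. Among the blood endothelial markers, Vwf and Car4 were higher and Plvap lower at an unadjusted p under 0.05 in edgeR. DESeq2 called Vwf, which was without overlap (log2 fold change 1.38, SE 0.35, adjusted p = 0.261 in edgeR and 0.0027 in DESeq2). Their part in the result was not tested.

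Itga8, the partner of Itgb1 in mesenchymal cells, was at 9.65, 6.62 and 11.2 CPM in chronic RA F, M1 and M2 and at 36.3, 8.72, 39.0, 54.3 and 40.4 CPM in chronic CS F and M1 to M4. The library M1 stayed at the level of RA and the other 4 were above it (log2 fold change 1.97, SE 0.46, adjusted p = 0.253). Without M1 the log2 fold change was 2.23 with an adjusted p of 0.0444, the single integrin or laminin gene called when any library was left out of the chronic comparison. With M3 and M4, the highest in Itga8, as the only chronic CS libraries it was 2.37 with an adjusted p of 0.0329 in edgeR. With F, M1 and M2 as the only ones, 0 of the 36 genes were called. Both fits that called Itga8 left out M1, the library without a rise, so they do not strengthen the result.

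Itga5 had the smallest spread of the 8 genes, at 236, 214 and 201 CPM in chronic RA and at 178, 168, 164, 159.6 and 171 CPM in chronic CS, without overlap (log2 fold change -0.37, SE 0.09, adjusted p = 0.256). Itga2b, the platelet and megakaryocyte subunit of the fibrinogen receptor, was at 14.9, 19.1 and 48.7 CPM in chronic RA and at 4.20 to 12.1 CPM in chronic CS (log2 fold change -1.68, SE 0.47, adjusted p = 0.304). Without chronic RA M2 the log2 fold change was -0.97. The chronic RA M2 library, with the highest Itga2b, also had the highest sum of the platelet markers Pf4, Ppbp, Gp1ba, Gp9, Gp6 and Treml1, 44.9 CPM against 15.04 and 26.2 CPM in chronic RA F and M1 and 7.30 to 31.2 CPM in chronic CS, where Gp1ba, Gp9, Gp6 or Treml1 were at 0 in 3 libraries. Its partner Itgb3 had overlapping groups, at 55.9, 70.6 and 89.6 CPM in chronic RA and at 78.3, 56.4, 80.6, 115 and 79.5 CPM in chronic CS. The part of platelet RNA in the level of Itga2b was not tested.

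The 7 leukocyte integrins had a median log2 fold change of 1.09 after chronic CS, and none had groups that did not overlap. Itgb7 was at 11.9, 10.7 and 6.11 CPM in chronic RA and at 11.7, 22.1, 31.8, 17.9 and 18.2 CPM in chronic CS (log2 fold change 1.09, SE 0.33, adjusted p = 0.324). Itgax was at 5.01, 0.922 and 0.775 CPM in chronic RA and at 2.31, 10.8, 21.7, 12.4 and 5.49 CPM in chronic CS (log2 fold change 2.24, SE 0.77, adjusted p = 0.367), and Itgb2 at 30.5, 12.1 and 10.9 CPM and at 17.9, 29.01, 43.2, 55.7 and 26.95 CPM (log2 fold change 0.96, SE 0.44, adjusted p = 0.458). In each of these 3 genes chronic RA F was the highest of its group and chronic CS F the lowest of its group. The summed leukocyte markers had the same order, with 139 CPM in chronic RA F beside 79.8 and 80.5 CPM in M1 and M2, and 79.1 CPM in chronic CS F beside 149.9 to 256 CPM in M1 to M4. None of them was at 0. T and NK cell markers were at 21.3 to 37.5 CPM in chronic RA and at 29.6 to 46.1 CPM in chronic CS (5 of 6 higher, 3 at an unadjusted p under 0.05, 0 called by edgeR and 1, Cd3d, by DESeq2, none at 0). Alveolar macrophage markers were at 594 to 672 CPM and at 608 to 963 CPM (5 of 6 higher, 2 at an unadjusted p under 0.05, 0 called by edgeR and 1, Ear2, by DESeq2), with Marco or Siglecf at 0 in 3 chronic libraries. B cell markers had the other direction, at 33.4 to 53.8 CPM in chronic RA and at 13.97 to 27.8 CPM in chronic CS, with 4 of 4 lower, 0 called by edgeR or DESeq2, 0 at an unadjusted p under 0.05, and Ms4a1 at 0 in chronic CS M1 and M2. The part of these cells in the result was not tested. Itgal was at 10.3, 2.25 and 5.07 CPM in chronic RA and at 7.25, 11.4, 8.77, 21.4 and 12.3 CPM in chronic CS (log2 fold change 1.06, SE 0.51, adjusted p = 0.475), and Itgad at 0.470, 0.0288 and 0.238 CPM and at 0.473, 1.41, 0.291, 0.429 and 0.859 CPM (log2 fold change 1.49, SE 0.81, adjusted p = 0.520). Without chronic RA F, the log2 fold change was 3.63 for Itgax, 1.6 for Itgb2, 1.75 for Itgal and 2.36 for Itgad.

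The remaining genes of the chronic comparison had overlapping groups. The collagen receptor subunit Itga1 was at 87.4, 89.4 and 97.5 CPM in chronic RA and at 92.1, 114, 245, 109 and 123 CPM in chronic CS, where M2 was the highest (log2 fold change 0.58, SE 0.34, adjusted p = 0.553). Itga2 was at 4.39, 1.498 and 2.21 CPM in chronic RA and at 2.42, 6.12, 1.79, 5.30 and 3.66 CPM in chronic CS (log2 fold change 0.52, SE 0.51, adjusted p = 0.738). The abundant genes differed little, with log2 fold changes of -0.18 for Itgb1 (SE 0.11), -0.03 for Lamb2 (SE 0.13), -0.19 for Lamc1 (SE 0.21), -0.17 for Lamb1 (SE 0.32), 0.26 for Itga6 (SE 0.21) and 0.19 for Itgb3 (SE 0.22). Itgb1 was at 975, 1034 and 1015 CPM in chronic RA and at 972, 705, 826, 959.9 and 994 CPM in chronic CS, with M1 the lowest.

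The chains that pair with Lama4 had overlapping groups. Lamb2 was at 386, 389 and 390.1 CPM in chronic RA and at 439, 325, 298, 391 and 451 CPM in chronic CS. Lamc1 was at 325, 342 and 288 CPM in chronic RA and at 341, 201, 189, 364 and 297 CPM in chronic CS, and Lamb1 at 145, 176 and 125 CPM and at 173, 93.2, 64.2, 197 and 131 CPM. All 3 were lowest in M1 and M2 of chronic CS. Itga6 was at 108.9, 108.3 and 109.4 CPM in chronic RA, a narrower range than the 130.9, 81.1, 136.6, 164 and 137.7 CPM of chronic CS. The remaining members of each group, Itgam, Itgae, Itga4, Itga3, Itga7, Itga10, Itga11, Itgav, Itgb4, Itgb5, Itgb6, Itgb8, Lama1, Lamb3 and Lamc3, had log2 fold changes from -0.32 (Itga11) to 3.14 (Itgb6) and adjusted p from 0.491 (Itgam) to 0.965 (Itgae). Of the 37 other pathway genes tested after chronic CS, 0 were called by edgeR's quasi-likelihood test, 11 had an unadjusted p under 0.05, beside 10.9% of all genes tested, and DESeq2 called 6, beside 2.91%. Tnc, a ligand of Itga9, was at 105, 33.8 and 92.8 CPM in chronic RA and at 8.16 to 25.8 CPM in chronic CS (log2 fold change -2.22, SE 0.43, adjusted p = 0.201).

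**Figure D5:**
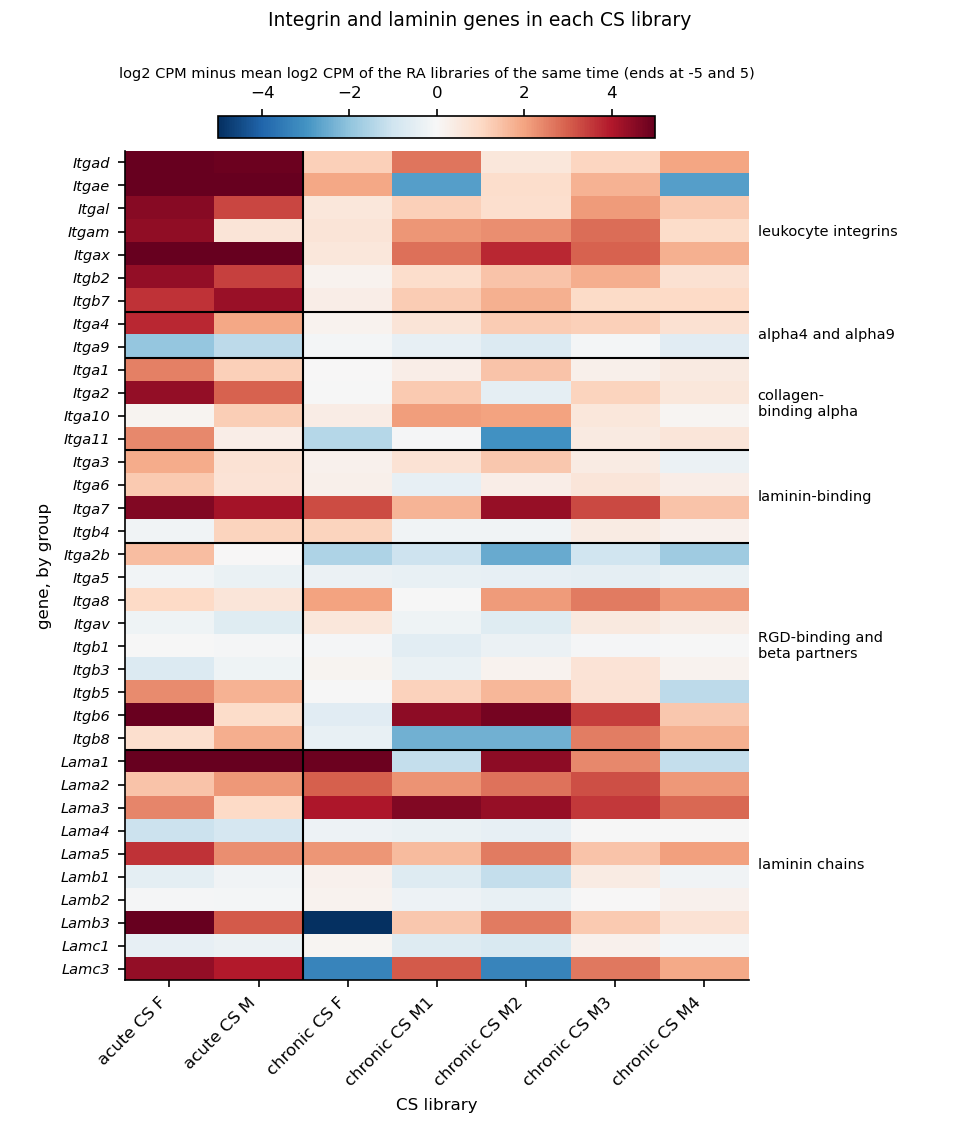
Difference of each CS library's log2 CPM from the mean of the RA libraries of the same time, for the 36 genes by group, where red is higher, blue is lower and the colours end at -5 and 5. The leukocyte integrins are red in both acute CS libraries, palest for Itgam in M, Itga9 and Lama4 are blue there, and Itgb1, Itga5 and Lamb2 stay pale in all 7 columns.

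Chronic RA was also set against acute RA, to see how far these genes differ between times with no smoke. None of the 36 genes passed the adjusted limit in edgeR's quasi-likelihood test (0% of all genes tested), 2 had an unadjusted p under 0.05 (5.56%, beside 7.01% of all genes tested) and DESeq2 called 1, Itga2b, where it called 1.55% of all genes it gave a value. Itga2b was at 4.36 and 6.43 CPM in acute RA and, as given above, at 14.9 to 48.7 CPM in chronic RA (log2 fold change 2.35, SE 0.66, adjusted p = 0.479 in edgeR and 0.0178 in DESeq2). Platelet markers summed to 8.53 and 9.76 CPM in acute RA and to 15.04 to 44.9 CPM in chronic RA. The other gene was Itga8, at 23.01 and 19.9 CPM in acute RA and at 6.62 to 11.2 CPM in chronic RA (log2 fold change -1.23, SE 0.53, adjusted p = 0.700). Fibroblast markers summed to 241 and 216 CPM in acute RA and to 142 to 176 CPM in chronic RA, with 3 of 6 lower at an unadjusted p under 0.05, 0 called by edgeR, 2 by DESeq2 and none at 0. Their part in the level of Itga8 was not tested. The acute and chronic libraries differed also in pooling, so age and pooling cannot be told apart.

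The acute and the chronic effects were set against each other by the difference of the fold changes. Of the 36 genes, 1 (2.78%) was called, where 0.452% of all genes tested were, and 11 (30.6%) had an unadjusted p under 0.05, as did 11.9% of all genes tested. The call was Itgb7, whose log2 fold change was 4.01 in the acute and 1.09 in the chronic comparison, a difference of 2.92 (SE 0.54, adjusted p = 0.0471). This call held in 5 of 20 alternative settings, with adjusted p from 3.61e-05 to 0.254. Itgb2 had a difference of 3.02 (SE 0.73, adjusted p = 0.104), Itgal of 2.99 (SE 0.83, adjusted p = 0.161), Itgax of 4.19 (SE 1.24, adjusted p = 0.185) and Itga2 of 3.34 (SE 0.86, adjusted p = 0.128). Without chronic RA F the difference was 2.35 for Itgb2, 2.27 for Itgal and 2.77 for Itgax. Without acute CS F it was 2.45 for Itga2.

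Markers moved in the same contrast. The leukocyte markers had a median difference of 3.05, with 6 of 6 at an unadjusted p under 0.05 and 2 called by edgeR, and the B cell markers one of 4.19, with 4 of 4 at that p and 0 called by edgeR and 3 by DESeq2. Of the lymphatic markers, 5 of 6 had a negative difference and 1, Prox1, was called (log2 difference -1.09, SE 0.19, adjusted p = 0.0406 in edgeR). Blood endothelial markers were 6 of 6 with a positive difference, 2 at an unadjusted p under 0.05 and 1, Vwf, called by edgeR. T and NK cell markers had a median of 2.06 with 4 of 6 at that p, smooth muscle and pericyte markers 3 of 6, fibroblast markers 3 of 6 and alveolar macrophage markers 3 of 6, with 0 called by edgeR and 1, 2, 2 and 2 by DESeq2. The part of all these markers in the differences of integrins, laminins and their partners was not tested.

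On the lower side, Itga9 had a difference of -1.21 (SE 0.30, adjusted p = 0.114) and Lama4 of -0.76 (SE 0.20, adjusted p = 0.130). Lama5 was higher after smoke at both times and its difference of 1.29 (SE 0.81, adjusted p = 0.595) was less than 2 standard errors. Without acute CS F the difference of Lama5 was 0.53. Of the 11 genes, DESeq2 called Itgb7, Itgb2, Itgal, Itgax, Itga2, Itga2b, Itga9 and Lama4, beside 5.23% of all genes it gave a value. Of the other pathway genes, Icam1, Jam2, Bcam and Fermt3 were called, with differences of 2.27 (SE 0.32, adjusted p = 0.0333), 3.04 (SE 0.51, adjusted p = 0.0406), 1.91 (SE 0.36, adjusted p = 0.0496) and 2.79 (SE 0.49, adjusted p = 0.0406).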

How the data were processed

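RNA of sorted lung LECs was measured in 12 libraries made with the SMART-Seq v4 and Nextera XT kits, which do not mark strand. The authors deposited raw read counts per Ensembl gene, 1 table a library. Per the methods, reads were checked with FastQC 0.11.9, trimmed with Skewer, filtered with Minion and counted with the GeneCounts mode of STAR on GRCm38. Which annotation release and strand setting were used is not given in the sources used here.

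Groups were taken from the labels. Gene names, exon lengths and positions came from GENCODE M21, in which 147 of 52636 identifiers, with at most 0.011% of a library's counts, were not found. The deposited counts went into edgeR 4.0.16 under R 4.3.3 (TMM, filterByExpr, ~0 + group over all 12 libraries, quasi-likelihood F-test) and DESeq2 1.42.0, adjusted after Benjamini and Hochberg with a limit of 0.05, and checked on data with known answers. Heat map values are log2 CPM with a prior count of 2. Python 3.11.15, pandas 2.3.3 and matplotlib 3.10.9 made tables and figures. Total counts were 18821438 to 56998590. Within chronic CS, F, M1 and M2 had 18821438 to 22885446 counts, while M3 had 47494020 and M4 45436986. Limits of 3 counts cover counting error only. No pair of libraries of the same group agreed within sampling noise (the smallest median chi-square over genes was 7.2).

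Per-library values are given for genes called in any of the 4 comparisons and for those with a mean of at least 10 FPKM in room air, while others are given by range or beside a result they bear on. Genes near the limit (Itga4, Itgae, Itgam, Itgb5, Itga3, Itga8, Itga2b, Lama1, Lama2 and Lama3, and Emilin1, Npnt and Tnc), and the promoter motifs, were singled out after their values were seen. The genes, lists and tests were chosen with earlier results of these data known. The fits were repeated with DESeq2, without TMM factors, without the filter on low counts, on the compared groups alone, with sex as covariate, with a replicate block, with robust estimation, with each library left out, and with chronic CS F, M1 and M2 or M3 and M4 alone.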

Additional observations from a re-analysis of the deposited data

Results flagged for a closer look

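In the 5 chronic CS libraries, Itga8 stood apart in M1, with a log2 CPM of 3.13 against 5.19 to 5.76 in the other 4, a gap of 0.781 of the group's range. Lamb3, a chain of epithelial laminin, stood apart in chronic CS F, where no read was counted and the log2 CPM with its prior count was -4.28, against 1.89 to 3.77 in the others (0.766 of the range). Chance flags about 1 in 20 groups by this rule, and 36 genes were looked at in this group. Itgb7 had a larger log2 fold change after acute than after chronic CS by 2.92, which passed the test of the difference (adjusted p = 0.0471 in edgeR's quasi-likelihood test).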

How the results depend on the processing

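Beside the 10 integrin and laminin genes called after acute CS, DESeq2 called 16, the fit of only the acute groups 2 and the fit with a replicate block 0, with 0 to 10 called when 1 library was left out (0 without acute RA M, 1 without acute CS F or acute RA F, 7 or more otherwise). After chronic CS, where 0 were called, DESeq2 called 8, M3 and M4 alone 1, and leaving out 1 library 0 to 1 (Itga8 without M1). Between the room air controls DESeq2 called 1 in place of 0. The single call in the difference between the effects became 8 with DESeq2, 2 with no filter, 0 with library size, with sex as a covariate, with the replicate block or with F, M1 and M2 alone, and 0 to 1 when 1 library was left out. No fold change of a called gene changed sign. Over all genes, the 745 acute calls became 1961 with DESeq2, 139 with only the acute groups, 73 with the block and 3 to 973 with 1 library left out. The 97 calls of the difference became 920 with DESeq2, 191 with no filter, 21 with sex, 0 with the block and 0 to 263 with 1 library left out. In place of 0, DESeq2 called 524 genes in the chronic comparison and 253 between controls, no filter 10 and 6, M3 and M4 alone 16 in the chronic comparison, and the control groups alone 42. With 1 library left out these were 0 to 4 and 0 to 2, and with F, M1 and M2 alone 1 in the chronic comparison. The replicate block joins libraries with the same sex and number in the labels. After the mean of each group was removed, libraries with the same label had correlations of 0.069 in the acute and of -0.042, 0.034 and 0.006 in the chronic groups. With 2 libraries a group, the acute values for same and for unlike labels (-0.069) mirror each other by construction. They cannot show whether libraries with the same label share more than label and sex. A library left out of an acute group leaves 1 sample, assumed to vary like the other groups. No value between the controls was computed with the block. The cause of these differences was not tested. With 2 libraries a group, exact permutation tests cannot go below 0.333, and genes under about 1 CPM rest on few counts.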
